A study of Mus musculus with 23 samples.

Results

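Notch1, Notch2, Notch3, Jag1, Jag2, Dll4, Hes1, Hey1, Heyl and Nrarp are 3 receptors, 3 ligands and 4 target genes of the Notch pathway. They were picked by gene symbol, 10 of the 27179 genes counted by RNA sequencing of mouse liver tissue. Hes1 and Jag2 rose and Notch3 fell in the ABpIF/+ livers, and Hes1, Jag1 and Jag2 rose in the ABpIF/F livers, each against Ctrl. Jag1, Nrarp, Notch3 and Heyl were lower in ABpIF/+ than in ABpIF/F livers. Of these 4 differences, only that of Jag1 passed the thresholds given below with any 1 mouse left out. With a circadian clock gene score as a covariate, 0 of the 4 passed. The 3 differences of ABpIF/+ from Ctrl did not pass with strain as a covariate.

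The study asked what loss of Icmt, a methyltransferase that finishes the processing of farnesylated proteins such as RAS, does to livers that express oncogenic BRAF and lack p53. Liver without visible tumors was taken from 15 female mice, all carrying Alb-Cre and Trp53 flx/flx on a B6 background. The 6 Ctrl mice had wild-type Braf and Icmt flx/+, the 6 ABpIF/+ mice had BrafCA/+ and Icmt flx/+, and the 3 ABpIF/F mice had BrafCA/+ and Icmt flx/flx. BrafCA yields BRAF V600E once Cre has acted. Strain nearly follows genotype: 5 of the 6 Ctrl mice carry a strain label that joins the Icmt, Trp53 and Braf alleles with Albcre, while BG3 of Ctrl and every mutant mouse carry that label with a further cross to a B6 line bearing Trp53, Braf and Icmt alleles. The labels list 23 samples, which name these 15 mice, 8 of them under 2 sample entries, and each mouse gives 1 column of counts. Albumin-Cre acts in hepatocytes and their precursors, so the alleles should stay unrecombined in liver cells of other origin, such as endothelium. Bile duct cells share those precursors and may carry recombined alleles, which was not tested here. The Ctrl mice carry Icmt flx/+ and the Trp53 deletion too, and no mouse with both Icmt alleles intact was analysed here. The labels give no ages, and the study describes ABpIF/F mice of widely different ages without tying them to mouse names, so age may differ within and between groups. Nothing in the labels ties mice to litters, so p-values measure the spread between these mice.

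Notch receptors are cleaved when a Jagged or Delta-like ligand on a neighbouring cell binds them, and the freed intracellular domain joins the DNA-binding protein RBPJ to switch on genes such as Hes1, Hey1, Heyl and Nrarp. HES and HEY proteins are repressors, and NRARP limits the signal by acting on the intracellular domain. In liver, JAG1 signalling to NOTCH2 is known for directing hepatoblasts to the bile duct fate, NOTCH3 is typical of stellate and mural cells, and DLL4 and NOTCH1 of endothelium.

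Values are CPM, the reads of a gene scaled to 1000000 reads of its library after TMM normalization. A gene is called changed at an adjusted p under 0.01 in edgeR's quasi-likelihood test, Benjamini-Hochberg over all 27179 genes, together with at least a 2-fold change. "Rose" and "fell" are used of called genes only. Icmt itself had a mean of 30.8 CPM in Ctrl, 32.7 CPM in ABpIF/+ and 15.8 CPM in ABpIF/F, and every ABpIF/F mouse lay below every other mouse, as the labels give it. Library totals ran from 24742910 to 32262649 counts. All 10 hepatocyte marker genes examined were abundant in every mouse, led by Alb at 89159 CPM in Ctrl. Exons of Notch1, Notch3, Dll4, Nrarp and Icmt overlap annotated genes on the opposite strand, and those of Notch2 a gene on the same strand (GENCODE). For Icmt that gene is the protein-coding Rnf207. The strand setting of the counting is not given in the sources used here, so reads of such pairs may not have been told apart. In bulk tissue, fewer cells of a type and less RNA per cell cannot be told apart.

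The region just upstream of a gene is where a promoter lies, and promoters of 7 of the 10 members are in the RefSeq promoter table (GRCm38.p6); those of Hes1, Hey1 and Heyl were not matched. The 2 shown are those of Jag1 and Nrarp, the 2 members with the lowest adjusted p between ABpIF/+ and ABpIF/F. Each holds the 250 bases before the transcription start, read 5′ to 3′ on the gene's own strand: chr2:137116521-137116770 on the minus strand for Jag1 and chr2:25180508-25180757 on the plus strand for Nrarp. Capitals mark the letters CACGTG and CACGCG (or its reverse complement CGCGTG), sequences that HES and HEY repressors are known to bind.
Jag1: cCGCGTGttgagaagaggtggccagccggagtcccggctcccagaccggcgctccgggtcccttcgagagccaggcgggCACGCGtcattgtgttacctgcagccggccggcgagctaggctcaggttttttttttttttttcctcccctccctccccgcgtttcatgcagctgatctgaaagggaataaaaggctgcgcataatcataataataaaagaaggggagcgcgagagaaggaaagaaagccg
Nrarp: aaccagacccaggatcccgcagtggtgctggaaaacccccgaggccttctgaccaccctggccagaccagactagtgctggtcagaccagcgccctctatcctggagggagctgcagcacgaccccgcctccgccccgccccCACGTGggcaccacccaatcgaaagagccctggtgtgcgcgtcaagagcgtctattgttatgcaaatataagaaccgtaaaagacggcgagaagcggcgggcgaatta
The RBPJ core TGGGAA (or TTCCCA) and the longer GTGGGAA occur in neither, nor in the other 5 windows (Notch1, Notch2, Notch3, Jag2 and Dll4). The Jag2 window, chr12:112929496-112929745, lies within the gene span given below for Jag2, so it is not upstream of that span. TGGGAA on either strand is in 21.6% of the 32851 windows of this length in the table and GTGGGAA, which contains it, in 5.42%. CACGTG, its own reverse complement, starts 108 bases before the Nrarp start and is in 6.02% of windows. CACGCG or its reverse complement is found at 2 places in the Jag1 window and in 7.62% of windows, and also once each in the Dll4 and Notch2 windows. The last pair of motifs was added after the sequences had been read. An absent match says only that those letters are not in the window.

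Per kilobase of exon, the scale on which different genes can be compared, Notch2 was the highest member in Ctrl livers at 4.22 ± 0.781 CPM per kilobase (SD, n = 6), followed by Hes1 at 3.17 ± 0.998. The ranges of those 2 genes overlapped, and Hes1 lay above all Ctrl values of Notch1 at 0.939 ± 0.180. From Notch1 down through Dll4 (0.881), Jag1 (0.737), Nrarp (0.581), Heyl (0.477), Notch3 (0.281) and Hey1 (0.195 CPM per kilobase), the ranges of each neighbouring pair overlapped. Jag2 was lowest at 0.0152 CPM per kilobase, below every Ctrl value of Hey1. In ABpIF/+ livers the order began with Hes1 at 10.9 ± 3.17 and Notch2 at 5.87 ± 1.29 CPM per kilobase, with overlapping ranges, and ended with Notch3 at 0.0831 and Jag2 at 0.0809. In ABpIF/F livers Hes1 at 17.6 ± 2.29 CPM per kilobase (SD, n = 3) lay above all values of Notch2 at 7.13 ± 1.16, and Jag1 at 2.25 ± 1.09 came next.

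**Figure D1:**
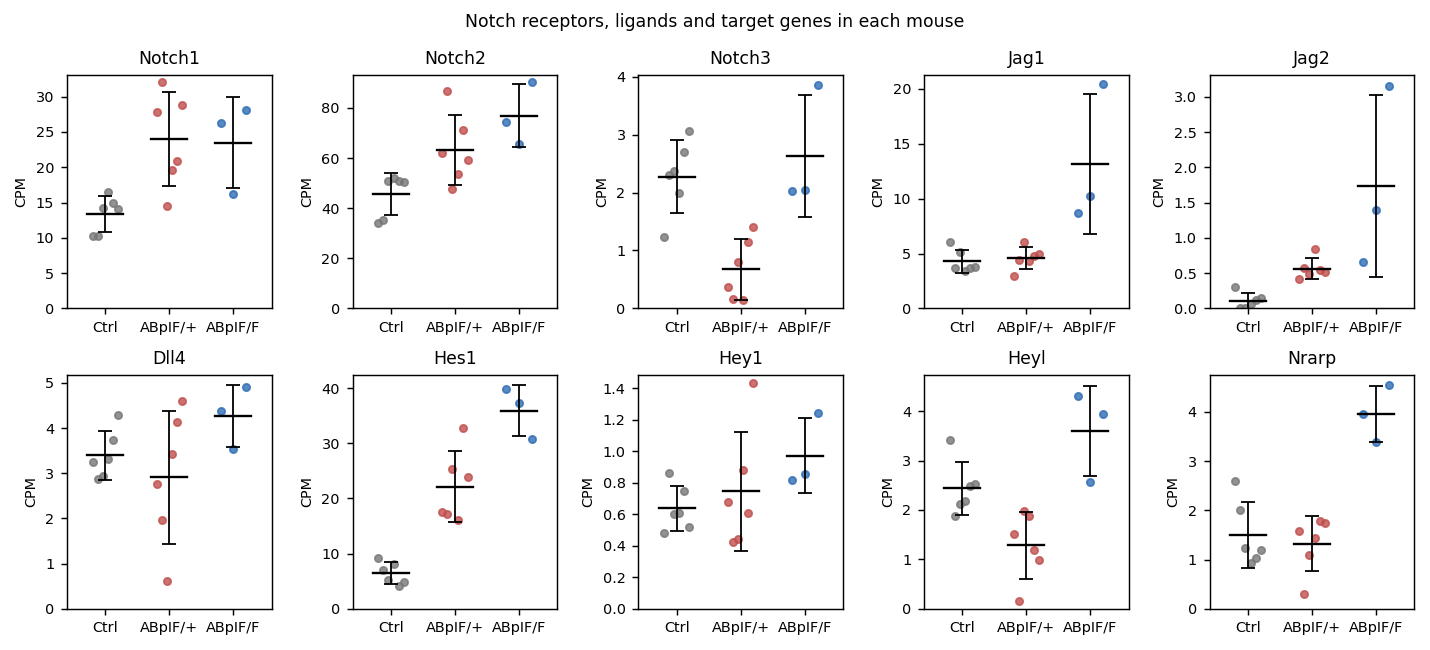
Level in CPM (y axis, from 0, a scale of its own for each gene) of the 10 members in each mouse by group; points are mice, the horizontal line is the group mean and the bars are the SD (Ctrl and ABpIF/+ n = 6, ABpIF/F n = 3). Hes1 is higher in every ABpIF/+ and ABpIF/F mouse than in any Ctrl mouse, and Jag1 and Nrarp are higher in every ABpIF/F mouse than in any other mouse.

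Hes1 (chr16:30065357-30067796), the repressor that is the best known Notch target, rose in both Braf mutant groups. Its Ctrl counts had a minimum of 130, a median of 160.5 and a maximum of 254 reads, or 4.10 to 9.27 CPM. The 6 ABpIF/+ mice gave 439 to 1025 reads with a median of 547, or 16.2 to 32.8 CPM. The 3 ABpIF/F mice, BG183, BG90 and BG38, had 1218, 1043 and 1109 reads, or 39.7, 37.3 and 30.7 CPM. Both mutant groups lay wholly above Ctrl, while 1 ABpIF/+ mouse, BG175, reached into the ABpIF/F range. Hes1 was 3.44-fold higher in ABpIF/+ than in Ctrl (log2 1.78 ± 0.209 SE, edgeR adjusted p = 2.86e-06) and 5.57-fold higher in ABpIF/F (log2 2.48 ± 0.238, edgeR adjusted p = 6.92e-07). ABpIF/+ stood 0.70 below ABpIF/F on the log2 scale (log2 -0.70 ± 0.238, edgeR adjusted p = 0.0495), which is not a call.

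Nrarp (chr2:25180758-25183339), the feedback inhibitor, separated the 2 Braf mutant groups. Ctrl mice ranged from 0.930 to 2.61 CPM with a median of 1.21, and ABpIF/+ mice from 0.310 (BG40) to 1.79 CPM with a median of 1.51. The ABpIF/F mice BG183, BG90 and BG38 had 3.95, 3.39 and 4.54 CPM, above all 12 other mice. Nrarp was 2.97-fold lower in ABpIF/+ than in ABpIF/F (log2 -1.57 ± 0.377, edgeR adjusted p = 0.00471). ABpIF/F was 2.65-fold above Ctrl (log2 1.41 ± 0.377), at an edgeR adjusted p = 0.0105 that just misses the threshold. Without Ctrl mouse malpa387, which had the top Ctrl value, that comparison gave log2 1.64 and adjusted p = 0.00329, and without BG40, 1.41 and 0.00196. Against Ctrl, ABpIF/+ gave log2 -0.17 ± 0.332 (edgeR adjusted p = 0.980), and the sign turned without malpa387 (0.064) or BG40 (0.036).

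Heyl (chr4:123233556-123249870), a repressor of the HEY family found mostly in mural cells and vessels, had 1.89 to 3.42 CPM in Ctrl (median 2.33) and 0.155 to 1.98 CPM in ABpIF/+ (median 1.35). BG183, BG90 and BG38 had 4.31, 2.57 and 3.93 CPM. The ABpIF/F mice lay above all ABpIF/+ mice and overlapped Ctrl, and the lowest ABpIF/+ value, 4 reads in BG40, was far under the next, 29 reads in BG30. Heyl was 2.81-fold lower in ABpIF/+ than in ABpIF/F (log2 -1.49 ± 0.395, edgeR adjusted p = 0.00984), a call close to the threshold. Against Ctrl the log2 difference was -0.93 ± 0.342 for ABpIF/+ (adjusted p = 0.0505) and 0.56 ± 0.394 for ABpIF/F (adjusted p = 0.434).

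Hey1 (chr3:8663359-8667038), the HEY family member most tied to endothelium, was scarce, with 11 to 45 reads in any mouse. Ctrl mice had 0.484 to 0.861 CPM, ABpIF/+ mice 0.426 to 1.43 CPM and ABpIF/F mice 0.816 to 1.25 CPM, and all 3 groups overlapped. The log2 differences from Ctrl were 0.23 ± 0.339 in ABpIF/+ (edgeR adjusted p = 0.839) and 0.61 ± 0.399 in ABpIF/F (adjusted p = 0.382). ABpIF/+ against ABpIF/F gave -0.38 ± 0.399 (adjusted p = 0.679).

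Jag1 (chr2:137081451-137116520), the ligand of bile duct formation, was at like levels in Ctrl and ABpIF/+ and higher in ABpIF/F. Ctrl mice had 90 to 163 reads, a median of 3.73 CPM and a range of 3.43 to 6.07 CPM. ABpIF/+ mice had 79 to 151 reads, a median of 4.57 CPM and a range of 2.98 to 6.09 CPM. BG183, BG90 and BG38 had 266, 287 and 737 reads, or 8.68, 10.3 and 20.4 CPM. Every ABpIF/F mouse was above every other mouse, and BG38 was well above the other two. Jag1 was 3.06-fold higher in ABpIF/F than in Ctrl (log2 1.61 ± 0.248, edgeR adjusted p = 5.68e-05) and 2.86-fold lower in ABpIF/+ than in ABpIF/F (log2 -1.52 ± 0.248, adjusted p = 0.000162). Both calls held with any 1 mouse left out. Without BG38 the log2 differences were 1.14 and -1.05. ABpIF/+ against Ctrl gave 0.09 ± 0.216 (adjusted p = 1).

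Jag2 (chr12:112907803-112929812), the other Jagged ligand, was the scarcest member. Counts in Ctrl were 8 in malpa387, 0 in BG3 and malpa454, 2 in malpa458, and 4 in each of malpa459 and malpa462. ABpIF/+ mice had 11 to 23 reads with a median of 15. BG183, BG90 and BG38 had 20, 39 and 114 reads. Every mutant mouse was above every Ctrl mouse, and the mutant groups overlapped. Means were 0.106 CPM in Ctrl, 0.564 CPM in ABpIF/+ and 1.73 CPM in ABpIF/F. The fitted difference from Ctrl was log2 2.36 ± 0.579 in ABpIF/+ (5.14-fold, edgeR adjusted p = 0.00331) and 3.98 ± 0.618 in ABpIF/F (15.8-fold, adjusted p = 6.22e-05). With so few Ctrl reads these folds are imprecise. Without BG38 the ABpIF/F value was 3.21. ABpIF/+ stood at log2 -1.62 ± 0.548 against ABpIF/F (adjusted p = 0.0427), not a call, and at -0.85 without BG38.

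Dll4 (chr2:119325784-119335666), the Delta-like ligand of endothelium, ranged from 2.87 to 4.29 CPM in Ctrl, from 0.605 (BG31) to 4.61 CPM in ABpIF/+ and from 3.54 to 4.90 CPM in ABpIF/F. The groups overlapped, and the ABpIF/+ mice were the most spread. No comparison came near a call, with log2 -0.21 ± 0.300 for ABpIF/+ against Ctrl (edgeR adjusted p = 0.814), 0.33 ± 0.358 for ABpIF/F against Ctrl (0.709) and -0.55 ± 0.358 for ABpIF/+ against ABpIF/F (0.373).

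Notch1 (chr2:26457902-26503822) and Notch2 (chr3:98013538-98150367), the receptors with the widest expression, were higher in mutant livers by less than 2-fold. Notch1 ranged from 10.2 to 16.5 CPM in Ctrl (median 14.1), 14.5 to 32.0 CPM in ABpIF/+ (median 24.3), and was 26.2, 16.1 and 28.1 CPM in BG183, BG90 and BG38. Only BG31 of ABpIF/+ and BG90 of ABpIF/F fell within the Ctrl range. Its log2 difference from Ctrl was 0.84 ± 0.187 in ABpIF/+ (edgeR adjusted p = 0.00195) and 0.81 ± 0.222 in ABpIF/F (adjusted p = 0.0141), and without BG90 the latter was 1.02 with an adjusted p = 0.00390. Notch2 had 34.1 to 51.9 CPM in Ctrl, 47.6 to 86.5 CPM in ABpIF/+ and 74.3, 65.8 and 90.5 CPM in BG183, BG90 and BG38, so that ABpIF/F lay wholly above Ctrl. Its log2 difference from Ctrl was 0.47 ± 0.147 in ABpIF/+ (adjusted p = 0.0188) and 0.75 ± 0.175 in ABpIF/F (adjusted p = 0.00349). Between the mutant groups Notch1 differed by log2 0.03 ± 0.226 and Notch2 by -0.28 ± 0.178, with adjusted p = 1 and 0.349.

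Notch3 (chr17:32120820-32166896) was the member that fell in ABpIF/+. Ctrl mice had 33 to 87 reads and a median of 2.33 CPM. ABpIF/+ mice had 10 (BG55), 4 (BG40), 20 (BG31), 4 (BG88), 36 (BG175) and 41 (BG30) reads, or 0.147 to 1.40 CPM. BG183, BG90 and BG38 had 2.02, 2.04 and 3.85 CPM. BG30 of ABpIF/+ was just above the lowest Ctrl mouse, malpa387 at 1.23 CPM, and no ABpIF/+ mouse reached the ABpIF/F range. Notch3 was 3.33-fold lower in ABpIF/+ than in Ctrl (log2 -1.74 ± 0.427, edgeR adjusted p = 0.00395) and 3.87-fold lower than in ABpIF/F (log2 -1.95 ± 0.486, adjusted p = 0.00700). ABpIF/F against Ctrl gave 0.22 ± 0.479 (adjusted p = 1), and -0.16 without BG38. The call against Ctrl was lost without malpa462 (adjusted p = 0.0106) or BG55 (0.0116).

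The calls counted over the 10 members stand beside the shares over all 27179 genes, of which 20380 had a read in any mouse. These shares also belong beside the counts of the marker and pathway lists below. In ABpIF/+ against Ctrl, 2 members (Hes1, Jag2) rose, where 4.69% of all genes were called up, and 1 (Notch3) fell, where 5.35% were called down. In ABpIF/F against Ctrl, 3 (Hes1, Jag1, Jag2) rose beside 4.55% of all genes, and 0 fell by edgeR's test, also at an unadjusted p under 0.05 and with DESeq2, beside 2.38% of all genes. For ABpIF/+ against ABpIF/F, 4 (Jag1, Nrarp, Notch3, Heyl) were lower beside 5.49% of all genes, and 0 were higher by edgeR, by DESeq2 or at an unadjusted p under 0.05, beside 1.76%. The median log2 difference of the members was 0.16, 0.78 and -1.09 in the 3 comparisons. Over the 12316 genes that averaged 1 CPM or more across all mice the medians were 0.017, -0.00077 and 0.038. The first 2 comparisons share the Ctrl mice, the first and the last share the ABpIF/+ mice and the latter 2 share the ABpIF/F mice.

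**Figure D2:**
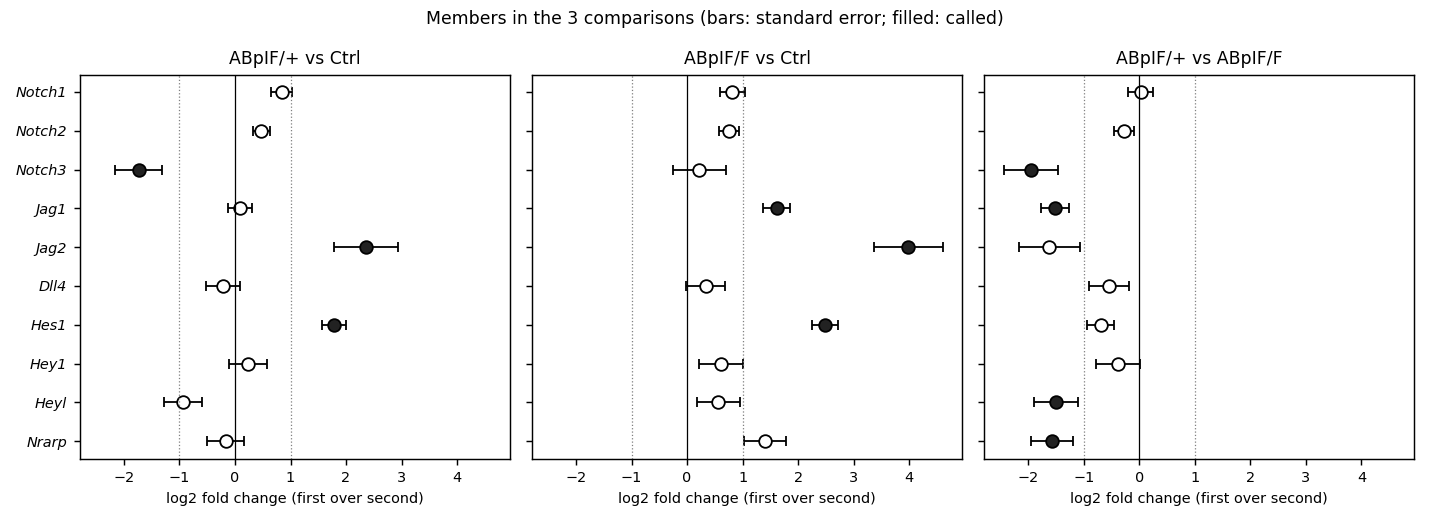
Log2 fold change (x axis; first group over second, bars are 1 SE of edgeR's fit) of each member in the 3 comparisons; filled points passed both thresholds and dotted lines mark a 2-fold change. Hes1 and Jag2 are filled in both comparisons with Ctrl, Jag1 in both comparisons that involve ABpIF/F, and Notch3 in both that involve ABpIF/+.

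The calls between ABpIF/+ and ABpIF/F other than Jag1 were near the threshold and were lost in several fits with 1 mouse left out. Some of those mice were Ctrl mice, which enter this comparison only through the shared fit. Without BG3, malpa454 or malpa458 the Notch3 log2 difference stayed at -1.95. Nrarp was no longer called without BG31, BG183, BG90 or BG38, with adjusted p values from 0.0110 to 0.0283. Notch3 lost its call without BG3, malpa454, malpa458, BG55, BG31, BG183, BG90 or BG38 (adjusted p 0.0101 to 0.0722), and Heyl without any mouse other than malpa387, BG40, BG31 or BG88 (0.0113 to 0.0450). The count of 4 was 1 without BG183, BG90 or BG38 and 2 without BG3, malpa454, malpa458, BG55 or BG31. The sign of each of these differences was the same in all of these fits.

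Marker genes of cells other than hepatocytes moved with several members. Of 14 stellate and mural cell genes, among them Dcn, Ecm1 and Reln, 10 fell in ABpIF/+ against Ctrl, 1 rose in ABpIF/F against Ctrl, and 11 were lower in ABpIF/+ than in ABpIF/F. Their summed level ran from 325 to 508 CPM in Ctrl, 89.3 to 181 CPM in ABpIF/+ and 295 to 463 CPM in ABpIF/F. ABpIF/+ thus lay below both other groups, as Notch3 did against ABpIF/F. Cnn1, with 0 to 6 reads in any mouse, was the one marker in this list near 0 in every group. Some others, with more reads in Ctrl and ABpIF/F, had means under 1 CPM in ABpIF/+. The median log2 difference of the list from Ctrl in ABpIF/+ was -1.69, beside -1.74 for Notch3 and -0.93 for Heyl. Mouse by mouse within ABpIF/+ the match was poorer. BG31 had the lowest sum (89.3 CPM) and the highest Heyl (1.98 CPM), and BG88 had the lowest Notch3 (0.147 CPM) at a sum of 148 CPM. BG175 and BG30, with the highest Notch3 values (1.15 and 1.40 CPM), had sums of 181 and 144 CPM. The part of these cells in the Notch3 and Heyl values was not tested.

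Summed sinusoidal markers were lower in every ABpIF/+ mouse than in any other mouse, vascular sums overlapped, and few genes of either list were called. Of 10 sinusoidal genes, 2 fell against Ctrl and 1 was lower than in ABpIF/F, with sums of 310 to 457, 118 to 298 and 311 to 460 CPM in Ctrl, ABpIF/+ and ABpIF/F. Of 12 vascular genes, 1 fell and 2 were lower in the same comparisons, with sums of 133 to 186, 60.7 to 142 and 133 to 197 CPM. In ABpIF/F against Ctrl 1 sinusoidal gene rose, and 0 vascular genes were called by edgeR, by DESeq2 or at an unadjusted p under 0.05. The lowest endothelial sums in ABpIF/+, in BG31, BG40 and BG55, were in the mice with the lowest 3 Dll4 values of that group, 0.605, 1.97 and 2.75 CPM. Pecam1 and Gpr182 went against the sums, with means of 23.1 and 19.7 CPM in ABpIF/+ beside 16.6 and 17.8 CPM in Ctrl. No marker of either list was at 0 in every mouse of a group. Their part in the Dll4, Hey1 and Notch1 values was not tested.

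Bile duct markers were high in ABpIF/F, the group where Jag1 was high. Of 12 such genes, 8 rose in ABpIF/F against Ctrl, 2 fell in ABpIF/+ against Ctrl, and 7 were lower in ABpIF/+ than in ABpIF/F. Pkhd1, Prom1 and Epcam were the most abundant, with means of 19.5, 29.9 and 6.36 CPM in ABpIF/F and 10.8, 7.84 and 1.98 CPM in Ctrl. The summed level ran from 20.3 to 33.7 CPM in Ctrl, 9.66 to 36.4 CPM in ABpIF/+ and 44.0 CPM (BG183), 76.2 CPM (BG90) and 103 CPM (BG38) in ABpIF/F. Within ABpIF/F, BG38 was highest in this sum and in Jag1 and Jag2, and BG183 was lowest in all 3. Hes1 had the reverse order within ABpIF/F, with BG183 highest. The part of bile duct cells in the Jag1 and Jag2 values was not tested.

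Macrophage and lymphocyte markers had lower sums in every ABpIF/+ mouse than in any other mouse. Of 8 macrophage genes 5 were called lower in ABpIF/+ than in Ctrl and 5 lower than in ABpIF/F, and of 10 lymphocyte genes 4 and 5. Marco, a macrophage receptor, had a higher mean in ABpIF/+ (16.3 CPM) than in Ctrl (11.3 CPM) or ABpIF/F (11.0 CPM). In ABpIF/F against Ctrl 1 lymphocyte gene rose. Summed macrophage levels were 281 to 377, 120 to 192 and 227 to 551 CPM in Ctrl, ABpIF/+ and ABpIF/F, and summed lymphocyte levels 13.7 to 19.7, 2.58 to 8.36 and 16.1 to 49.0 CPM. The macrophage sums of BG90 and BG38, 446 and 551 CPM, were above every Ctrl mouse. Hepatocyte genes gave 2 calls up in ABpIF/+ and 1 up and 2 down in ABpIF/F, each against Ctrl, and 2 up in ABpIF/+ against ABpIF/F. Their summed level was 100932 to 132012 CPM in Ctrl, 160887 to 216594 CPM in ABpIF/+ and 119014 to 206697 CPM in ABpIF/F, so ABpIF/+ lay wholly above Ctrl, the reverse of the stellate, macrophage and lymphocyte sums. Alb made up most of it, with means of 89159, 153783 and 144110 CPM. The hepatocyte genes did not all move as this sum did. At an unadjusted p under 0.05 in edgeR's test, 5 of the 10 were higher and 3 lower in ABpIF/+ than in Ctrl. The part of these cell types in the members' values was not tested.

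**Figure D3:**
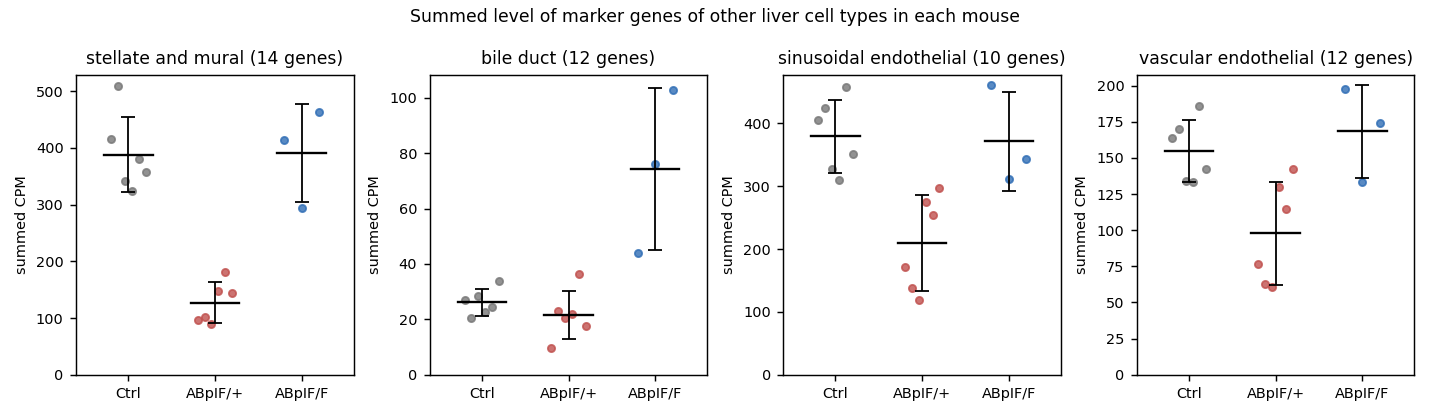
Summed CPM (y axis, from 0) of marker genes of 4 other liver cell types in each mouse by group; points are mice, lines are group means and bars are the SD. Stellate and mural genes are lowest in the ABpIF/+ mice (89.3 to 181 CPM), and bile duct genes highest in the ABpIF/F mice (44.0 to 103 CPM).

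The clock genes also separated the mice. On the first principal component of 16 circadian clock genes (84.4% of their variance), Ctrl mouse malpa387 scored -8.58 and BG183, BG90 and BG38 scored -5.63, -10.9 and -7.58, while the other 11 mice lay between 2.11 and 3.92. Among Ctrl mice malpa387 had the highest value of 5 members, Jag1, Jag2, Hes1, Heyl and Nrarp, and the lowest of 4, Notch1, Notch2, Notch3 and Hey1. It stayed below the ABpIF/F range for Jag1, Jag2, Hes1 and Nrarp and within it for Heyl. With the score as a covariate, 0 members were called between ABpIF/+ and ABpIF/F, with a log2 difference of -1.03 for Jag1 (edgeR adjusted p = 0.195), -0.72 for Nrarp (0.677), -1.13 for Heyl (0.416) and -2.87 for Notch3 (0.0799). In the same fit Jag1 and Jag2 were no longer called in ABpIF/F against Ctrl (log2 1.23 and 2.72, adjusted p = 0.0682 and 0.0984), and Hes1 still was. All 3 ABpIF/F mice lie on the low side and malpa387 is the only other mouse there.

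**Figure D4:**
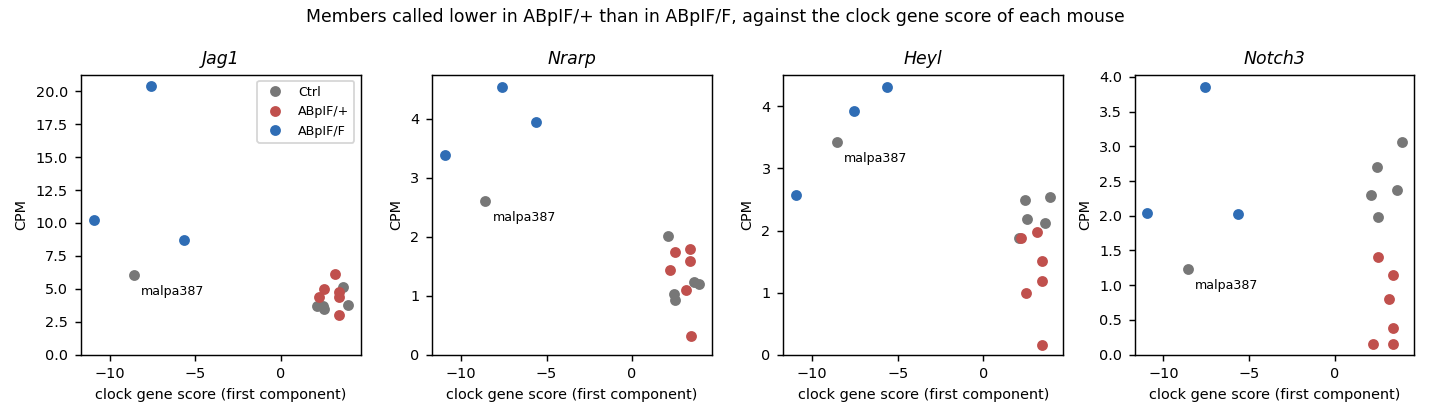
Level in CPM (y axis, from 0) of the 4 members called lower in ABpIF/+ than in ABpIF/F, against the clock gene score of each mouse (x axis, first principal component of log2 CPM, no unit); each point is a mouse, coloured by group. The 3 ABpIF/F mice and Ctrl mouse malpa387 lie at negative scores, and malpa387 is the highest Ctrl mouse for Jag1, Nrarp and Heyl and the lowest for Notch3.

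The strain split described above leaves BG3 as the one Ctrl mouse with the strain label of the mutants once a strain term is fitted. In that fit 0 members were called between ABpIF/+ and Ctrl. Hes1 was at log2 1.65 (edgeR adjusted p = 0.0304), Jag2 at 7.02 (0.0363, with BG3 at 0 reads) and Notch3 at -1.75 (0.148). In ABpIF/F against Ctrl Jag1 was at 1.83 (0.0163), not a call, while Hes1 and Jag2 stayed called. Strain and genotype cannot be told apart in the other 5 Ctrl mice.

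The remaining machinery of the pathway was read from 70 other genes in 7 roles. Of these, 57 averaged 1 CPM or more over all mice and 22 were called in at least 1 comparison. In ABpIF/+ against Ctrl 10 rose and 7 fell, beside 4.69% and 5.35% of all genes. In ABpIF/F against Ctrl 10 rose and 2 fell, beside 4.55% and 2.38% of all genes. In ABpIF/+ against ABpIF/F 11 were lower and 0 higher, beside 5.49% and 1.76% of all genes. The 0 holds for edgeR and DESeq2, and 8 genes were higher at an unadjusted p under 0.05. Without BG38 the count of 11 was 5. The median log2 difference was 0.10, 0.34 and -0.17, or 0.11, 0.34 and -0.22 with genes at 3 reads or fewer throughout a group set to their bound or left out.

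**Figure D5:**
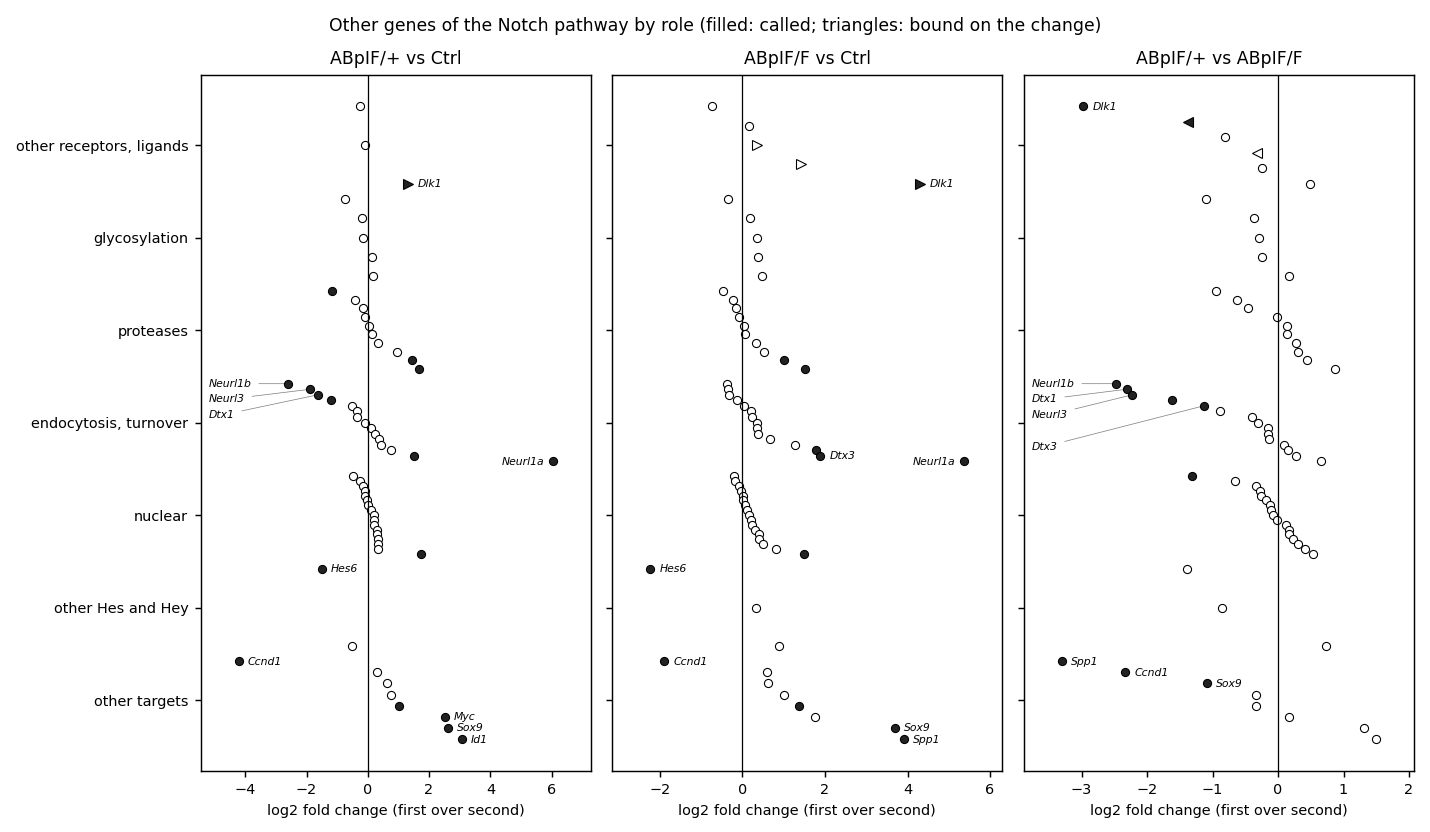
Log2 fold change (x axis, first group over second, scales differ between panels) of the other Notch pathway genes by role in the 3 comparisons. Genes at the floor of 3 reads in both groups are left out. Filled points passed both thresholds, and triangles stand at the bound for genes with 1 group at that floor. The 12 genes named for their large change are labelled where called. Neurl1a is the right-most point in both comparisons with Ctrl, and Ccnd1 is the left-most in ABpIF/+ against Ctrl.

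Among ligands and receptors outside the 10, Dlk1, a Delta-like protein of fetal liver that lacks the receptor-binding part of the Delta ligands, stood out. It had 0 to 3 reads in Ctrl mice, 2 to 17 in ABpIF/+ and 54, 79 and 65 in BG183, BG90 and BG38. Against a floor of 3 reads in each Ctrl library it was at least 2.50-fold higher in ABpIF/+ and at least 19.9-fold higher in ABpIF/F, with edgeR adjusted p = 0.00473 and 1.41e-06, and it was 7.85-fold lower in ABpIF/+ than in ABpIF/F (adjusted p = 0.000299). Mfap2, named because it was the other call of this role (lower in ABpIF/+ than in ABpIF/F), had 0 or 1 reads in ABpIF/+ mice and 3, 1 and 26 in BG183, BG90 and BG38, so BG38 was the one mouse above the floor of 3 reads. Notch4, the endothelial receptor, had log2 -0.09 in ABpIF/+ against Ctrl (adjusted p = 1).

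In the group that handles ligand uptake and receptor turnover (15 genes), 2 rose and 4 fell in ABpIF/+, 3 rose in ABpIF/F, each against Ctrl, and 5 were lower in ABpIF/+ than in ABpIF/F. Neurl1a, a ubiquitin ligase of the Neuralized family that promotes uptake of Notch ligands, had 6 to 14 reads in Ctrl, 417 to 828 in ABpIF/+ and 409, 327 and 571 in BG183, BG90 and BG38. It rose 65.8-fold in ABpIF/+ (log2 6.04 ± 0.213, edgeR adjusted p = 1.74e-14) and 41.6-fold in ABpIF/F (log2 5.38 ± 0.225, adjusted p = 1.94e-13). The mutant groups did not overlap Ctrl, and ABpIF/+ was above ABpIF/F in every mouse by a log2 difference of 0.66 (adjusted p = 0.0172), not a call. Its relatives Neurl1b and Neurl3 went the other way, with log2 -2.60 and -1.88 in ABpIF/+ against Ctrl (adjusted p = 8.88e-06 and 8.54e-05) and -0.12 and 0.35 in ABpIF/F (adjusted p = 1 and 0.654). Of the Deltex ubiquitin ligases, Dtx1 fell by 1.63 on the log2 scale in ABpIF/+ (adjusted p = 0.00102) and was 4.96-fold lower there than in ABpIF/F (adjusted p = 0.000230), and Dtx3 rose by 1.89 in ABpIF/F (1.25e-06).

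The 10 genes for the proteases that cut the receptors, other subunits of gamma-secretase included, gave 2 calls up and 1 down in ABpIF/+ and 2 up in ABpIF/F, each against Ctrl, and 0 between the mutant groups by edgeR or DESeq2, where 1 was higher and 3 were lower in ABpIF/+ at an unadjusted p under 0.05. The 2 up in both are Aph1b and Aph1c, subunits that do not themselves cut and near-identical copies whose reads the counting may have split, and the 1 down is Psen2, a catalytic subunit. Of 5 glycosylation genes 0 were called by edgeR in the 3 comparisons, with 1, 3 and 2 at an unadjusted p under 0.05 and, by DESeq2, 1 lower in ABpIF/+ than in ABpIF/F. Of 17 nuclear cofactors, 1 (Maml3) rose in ABpIF/+ and in ABpIF/F, and 1 (Maml2) was lower in ABpIF/+ than in ABpIF/F. These 5 names were chosen after their values were seen. Rbpj itself had log2 differences of -0.11, 0.23 and -0.34 (adjusted p = 0.717, 0.433 and 0.164).

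Of the 7 other HES and HEY genes, Hes6, which antagonises Hes1, was the one with a mean above 1 CPM. It fell by 1.50 on the log2 scale in ABpIF/+ (85.0 to 30.0 CPM, edgeR adjusted p = 0.000550) and by 2.23 in ABpIF/F (to 18.1 CPM, adjusted p = 0.000419), the reverse of Hes1. Ctrl mice ran from 27.0 CPM in malpa387 to 130 CPM, and malpa387 was the one Ctrl mouse within the ABpIF/+ range. The ABpIF/F call of Hes6 was lost with strain or the clock score as a covariate, where 0 other pathway genes fell against Ctrl.

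Among 8 further genes known as Notch targets in some tissues, 4 rose and 1 fell in ABpIF/+, 3 rose and 1 fell in ABpIF/F, each against Ctrl, and 3 were lower in ABpIF/+ than in ABpIF/F. Sox9, the transcription factor of bile duct cells, rose 6.10-fold in ABpIF/+ (2.96 to 18.2 CPM, edgeR adjusted p = 8.84e-08) and 13.0-fold in ABpIF/F (to 38.7 CPM, adjusted p = 1.59e-08). Spp1, the secreted protein osteopontin, rose 15.1-fold in ABpIF/F (43.8 to 660.0 CPM, adjusted p = 0.000375) and was at log2 0.61 in ABpIF/+ (adjusted p = 0.482). Myc and Id1, transcription regulators of growth, rose by log2 2.51 and 3.08 in ABpIF/+ (adjusted p = 0.00108 and 0.000491) and were at 1.01 and 1.76 in ABpIF/F (adjusted p = 0.269 and 0.0480). Myc was at 2.97, 3.61 and 14.7 CPM in BG183, BG90 and BG38, and BG38 was the one ABpIF/F mouse above the Ctrl range of 2.31 to 5.44 CPM. Id1 was at 40.1, 11.0 and 33.7 CPM in the same mice, with BG90 inside the Ctrl range of 3.48 to 16.8 CPM. Ccnd1, the G1 cyclin D1, went down from 140 CPM in Ctrl to 7.52 CPM in ABpIF/+ (18.6-fold, adjusted p = 1.91e-08) and 37.9 CPM in ABpIF/F (3.70-fold, adjusted p = 0.000769). Its ABpIF/F call was also lost with strain or the clock score as a covariate. These genes answer to other pathways too, and the part of Notch in them was not tested.

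For the receptor, the ligand and the target with the largest F over the 3 groups, the genes whose log2 CPM was most like theirs over the 15 mice were sought among 12315 genes averaging 1 CPM or more. For Hes1 they were Unc119, Rasgrp2 and Cnksr3 (Pearson r 0.969, 0.964 and 0.963). For Jag1 they were Cldn6, Dcdc2a and Anxa5 (r 0.955, 0.950 and 0.949), and for Notch1 Dcp1b, Carm1 and Pkd1 (r 0.917, 0.894 and 0.893). The points share the 3 groups, so these values describe likeness across groups as much as between mice.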

How the data were processed

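RNA of 15 female mouse livers was sequenced as stranded paired-end mRNA libraries. Per the labels and methods, the authors aligned the reads to mm10 with HISAT2 and counted them with featureCounts 2.0.8; annotation and strand setting are not given in the sources used here. The deposited values are raw counts of 27179 genes, with 24742910 to 32262649 per mouse; the counts of 10 mice are the same in both deposited tables, and 5 columns of the second table with no matching label were not used. Columns of the authors' own comparisons were not used. The labels write the Braf genotype of the mutants as +/+, the series' design as BrafCA/+.

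All genes of all mice were fitted with edgeR 4.0.16 (R 4.3.3; quasi-likelihood test in its edgeR 3 form, TMM, robust) with the 3 groups in 1 fit, and p-values were adjusted by Benjamini-Hochberg over all genes. The SE of a log2 fold change is its size divided by the root of F. Depth limits the scarce members, Jag2 above all. The step was also run on simulated counts, with changes set only in genes averaging 1 CPM or more. That run does not bear on Jag2 or Hey1, which averaged less. Positions and promoters are RefSeq GRCm38.p6.

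Members, gene lists and tests were chosen with earlier results of these data known. All 10 members are named. Of the other pathway genes called, the rule names the 12 with the largest change among those reaching a mean of 1 CPM in a group. Of each marker list it names up to 3 abundant genes. Mfap2, Aph1b, Aph1c, Psen2, Maml2, Maml3, Notch4 and Rbpj are named outside this rule. So are the markers Cnn1, Marco, Pecam1 and Gpr182, which were picked for their values. Alternatives were RLE scaling, DESeq2 1.42.0, a filter on low counts, the newer edgeR 4 method, no robust estimation, other thresholds, 2-group fits, strain or clock score as covariate, and each mouse left out. The values of 1 marker gene are not reported here.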

Additional observations from a re-analysis of the deposited data

How the results depend on the processing

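RLE scaling, DESeq2, the filter on low counts, the newer edgeR 4 method and no robust estimation changed few calls: Heyl between ABpIF/+ and ABpIF/F was lost with the filter (adjusted p = 0.0102) and without robust estimation (0.0110), Nrarp in ABpIF/F against Ctrl was gained with DESeq2 (0.00220) and the edgeR 4 method (0.00298), Jag2 between ABpIF/+ and ABpIF/F was gained with the edgeR 4 method (0.00601), and Icmt in ABpIF/F against Ctrl, log2 -0.96, passed the fold limit with the filter (-1.01). No scaling turned the direction of a member. At an adjusted p under 0.05 with no fold limit, 4 members and 17 other pathway genes rose in ABpIF/+ and 6 and 17 rose in ABpIF/F, each against Ctrl, and 4 pathway genes were higher in ABpIF/+ than in ABpIF/F. At a log2 change of at least 2, 1 member rose and 0 fell in ABpIF/+ against Ctrl, where 5 pathway genes rose and 2 fell; 4 pathway genes rose and 1 fell in ABpIF/F; and 0 members and 7 pathway genes were lower in ABpIF/+ than in ABpIF/F. With only the 2 groups compared, 2 members (Jag1 and Nrarp) and 7 pathway genes were lower in ABpIF/+ than in ABpIF/F, and Nrarp in ABpIF/F against Ctrl was gained (adjusted p = 0.00649). With strain as a covariate, 0 members rose and 0 fell and 3 pathway genes fell in ABpIF/+ against Ctrl, 0 pathway genes fell in ABpIF/F, and 2 members were lower in ABpIF/+ than in ABpIF/F; in ABpIF/+ against Ctrl the sign turned for Dll4 (0.028), Hey1 (-0.20) and Icmt (-0.088), none of them called. With the clock score as a covariate, 6 pathway genes rose and 0 fell in ABpIF/F against Ctrl, where Notch2 was gained (1.19, adjusted p = 0.00672), 0 members and 0 pathway genes were lower in ABpIF/+ than in ABpIF/F, and the sign turned for Nrarp in ABpIF/+ against Ctrl (0.049) and, between the mutant groups, for Notch1 (-0.53) and Jag2 (0.19). The causes were not tested.

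With each mouse left out in turn, members called down numbered 0 to 1 in ABpIF/+ against Ctrl and 1 to 4 against ABpIF/F, where other pathway genes numbered 0 to 1 up and 5 to 12 down. Uncalled log2 differences that changed sign ran from -0.0026 to 0.22 for Jag1, -0.064 to 0.35 for Hey1 and -0.30 to 0.064 for Nrarp in ABpIF/+ against Ctrl, from -0.16 to 0.38 for Notch3 in ABpIF/F against Ctrl, and from -0.18 to 0.18 for Notch1 between the mutant groups. Hes1 in both comparisons with Ctrl, Jag2 in both comparisons with Ctrl and Jag1 in both comparisons with ABpIF/F stayed called in every such fit.

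With 3 ABpIF/F mice, 1 Ctrl mouse of the ABpI strain label and 11 to 45 reads for Hey1 and 0 to 114 for Jag2, differences in these genes may have gone undetected. No paired analysis was possible because the replicate numbers come only from accession order and the count columns carry none. The second deposited table was not fitted, since 5 of its columns match no label.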
